A study of Mus musculus with 4 samples.

Results

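The hypoxia and glycolysis genes are 35 mouse genes chosen by name from what they are known to do, of 32285 genes counted in every library: 3 regulators of hypoxia-inducible factor (HIF), 3 glucose and lactate transporters, 13 enzymes of glycolysis, 4 enzymes beside it and 12 further HIF targets. They were followed in orthotopic pancreatic grafts of KPC cells, a mouse pancreatic tumor line, by droplet single-cell RNA sequencing with unique molecular identifiers (UMIs). The 4 libraries, 1 per condition, came from C57BL/6 mice, labeled as 7 months old, that were kept on a high-fat diet and were males by the study's methods, which give another age at grafting than the labels do. Pdgfrb-TK/GCV tumors grew in Pdgfrb-TK mice, in which the Pdgfrb promoter drives thymidine kinase so that ganciclovir (GCV) kills proliferating cells with an active promoter. Pdgfrb-TK/PBS tumors grew in the same strain given PBS. D-CAN tumors grew in wild-type mice given D-CAN, a hunter-killer peptide directed at stromal cells that carry nonglycanated decorin, and WT/PBS tumors grew in wild-type mice given PBS. The KPC cells themselves carry no thymidine kinase transgene. The sample titles speak of 1 mouse each, while the methods say that the tumor suspensions were pooled by treatment, and the label protocol describes nuclei of another tissue. With 1 library per condition no difference below has a replicate check or a test, and every 95% interval covers counting error only.

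Cells were assigned to a class when they carried at least 3 markers of it and no other class came close. Every series of 4 values below gives the GCV library first, then its PBS control, then the D-CAN library and last its own PBS control. KPC tumor cells numbered 6249, 6864, 3076 and 4341 in this order. There were also 136, 328, 1034 and 1554 CAF-marker cells (cancer-associated fibroblasts, CAFs), 1418, 422, 940 and 744 macrophage-marker cells, 182, 220, 487 and 250 neutrophil-marker cells and 43, 125, 89 and 340 endothelial-marker cells. UMIs were summed over the cells of a class in a library and are given as counts per 1e6 UMIs (CPM), so that a level is the gene's share of that class's UMIs. The libraries held 84020317 to 155408336 UMIs, and 4.48% to 29.3% of their cells had more than 20% mitochondrial UMIs, the highest share being in D-CAN. Of the cells kept, 9.27% to 25.5% carried markers of more than 1 class and 11.9% to 21.8% of none, and these were left out. Between 26 and 42 cell barcodes were shared by any pair of libraries, 0.39% of the smaller library at most.

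HIF-1 is a transcription factor whose alpha subunit, encoded by Hif1a, is made all the time and destroyed when oxygen is present. The prolyl hydroxylases Egln1 and Egln3 use oxygen to mark it for destruction, and both are themselves HIF targets. When oxygen is short, HIF switches on glucose uptake, nearly every step of glycolysis, lactate formation and export, and genes for pH control, mitophagy and collagen hydroxylation. Pancreatic tumors are known for poor perfusion, and tumor cells often also run glycolysis where oxygen is present.

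The letters ACGTG are a form of the core sequence that HIF binds. They were looked for, on both strands, in the 250 bases before each RefSeq transcription start (GRCm38.p6). Overlapping matches, as in CACGTG, were counted as 1 site, and other forms of the core were not looked for. Of 32 members with an entry (Ndrg1, Slc2a3 and Bnip3l have none), 18 held the letters in at least 1 of their windows, 56.3%, beside 18.5% of all 27025 genes of the table. The share was 24.9% of the 10443 genes with an entry and at least 100 UMIs in KPC cells of both Pdgfrb-TK libraries together. At least 2 sites stood before 6 members, 18.8%, beside 2.28% of all genes and 3.63% of the genes counted in KPC cells. The letters are a description and not a bound site, and CACGTG is read by other factors too. The members were chosen by name for what they are known to do, so their higher share is not a result of these data. The genes compared were not matched for their number of starts. The windows of 6 members whose levels are followed below, none of which overlaps a GENCODE M21 exon, are printed 5′ to 3′ with the letters in capitals. They are those of Pgk1 (chrX:106186850-106187099, plus strand), Ldha (chr7:46845554-46845803, plus strand, inside the annotated Ldha gene but outside its exons), Hk2 (chr6:82774455-82774704, minus strand), Egln3 (chr12:54203875-54204124, minus strand), P4ha1 (chr10:59323046-59323295, plus strand) and P4ha2 (chr11:54100674-54100923, plus strand, inside the annotated P4ha2 gene but outside its exons).
Pgk1: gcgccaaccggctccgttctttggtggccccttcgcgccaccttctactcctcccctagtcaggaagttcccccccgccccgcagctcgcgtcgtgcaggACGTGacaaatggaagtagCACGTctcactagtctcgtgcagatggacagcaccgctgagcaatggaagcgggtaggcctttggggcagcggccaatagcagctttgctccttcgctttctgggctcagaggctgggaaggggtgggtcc
Ldha: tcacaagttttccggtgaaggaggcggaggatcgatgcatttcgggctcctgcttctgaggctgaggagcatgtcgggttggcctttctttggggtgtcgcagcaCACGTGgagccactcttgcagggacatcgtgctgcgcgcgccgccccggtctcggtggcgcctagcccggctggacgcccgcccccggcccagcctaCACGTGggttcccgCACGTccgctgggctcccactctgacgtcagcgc
Hk2: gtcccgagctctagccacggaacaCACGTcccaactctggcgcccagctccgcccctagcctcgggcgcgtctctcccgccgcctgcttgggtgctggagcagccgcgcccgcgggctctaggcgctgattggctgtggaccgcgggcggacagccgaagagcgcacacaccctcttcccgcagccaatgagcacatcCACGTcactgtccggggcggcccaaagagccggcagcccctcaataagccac
Egln3: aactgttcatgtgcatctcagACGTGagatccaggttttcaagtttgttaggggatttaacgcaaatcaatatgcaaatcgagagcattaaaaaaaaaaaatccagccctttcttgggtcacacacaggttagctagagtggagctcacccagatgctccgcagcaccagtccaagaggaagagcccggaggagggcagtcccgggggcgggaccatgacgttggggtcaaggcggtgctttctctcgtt
P4ha1: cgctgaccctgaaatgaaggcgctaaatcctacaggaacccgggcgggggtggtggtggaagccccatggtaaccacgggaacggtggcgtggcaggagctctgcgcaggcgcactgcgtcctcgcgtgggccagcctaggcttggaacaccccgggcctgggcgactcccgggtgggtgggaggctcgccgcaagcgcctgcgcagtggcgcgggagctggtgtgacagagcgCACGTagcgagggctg
P4ha2: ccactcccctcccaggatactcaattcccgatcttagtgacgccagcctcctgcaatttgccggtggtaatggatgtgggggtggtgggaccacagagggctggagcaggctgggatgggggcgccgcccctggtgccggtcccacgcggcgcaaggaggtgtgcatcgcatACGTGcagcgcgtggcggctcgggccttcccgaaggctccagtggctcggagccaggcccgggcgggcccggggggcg
Ldha had 3 sites in the window printed, the most of any member, but no site in the window of its other start. Pgk1 and Hk2 had 2, and Egln3, P4ha1 and P4ha2 had 1. No site was found in the windows of Gapdh, Tpi1, Eno1, Gpi1, Pfkl, Pfkp, Aldoc, Hk1, Pdk1, Pfkfb4, Adm, Mif, Kdm3a and Higd1a, which says only that these letters are not in those windows.

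The members were not spread evenly over the cells of the tumor. The 13 glycolytic enzymes together made up 7772, 5965, 7533 and 6013 CPM of KPC tumor cells. In CAF-marker cells they made up 5159.8, 2576, 2262 and 2408 CPM, in macrophage-marker cells 6648, 4657, 4568 and 3652 CPM and in neutrophil-marker cells 5486, 4932, 4423 and 3864 CPM. KPC tumor cells were thus highest of the classes in each library. Among endothelial-marker cells, where the sum was 2869, 2871, 2356 and 2253 CPM, the level was the lowest of the 5 classes in Pdgfrb-TK/GCV and WT/PBS, and CAF-marker cells were the lowest in Pdgfrb-TK/PBS and D-CAN.

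The transporters ran the other way. Their 3 genes summed to 726, 684, 961 and 595 CPM in neutrophil-marker cells and 421, 169, 375 and 321 CPM in macrophage-marker cells, but to 114, 66.9, 106 and 87.1 CPM in KPC tumor cells. Slc2a3, the high-affinity glucose transporter GLUT3, stood at 154.6, 127, 431 and 270.4 CPM in neutrophil-marker cells and at 1.08, 0.753, 1.91 and 0.807 CPM in KPC tumor cells. Slc16a3, the lactate exporter MCT4, stood at 205, 240.2, 256 and 181 CPM in neutrophil-marker cells and at 5.01, 1.87, 3.71 and 2.15 CPM in KPC tumor cells. These 2 genes and Egln3 were highest in neutrophil-marker cells in all 4 libraries. Slc2a1, the widely used transporter GLUT1, had 366, 317, 273 and 144 CPM in neutrophil-marker cells and 295, 88.3, 255 and 199 CPM in macrophage-marker cells, so that the class with the highest level changed to macrophage-marker cells in WT/PBS.

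Among 5 classes compared, 8 members were highest in KPC tumor cells in all 4 libraries: the enzymes Tpi1, Gapdh, Pgk1, Pgam1 and Pkm of the later steps of glycolysis, the lactate dehydrogenase Ldha, the hydroxylase Egln1 and the carbonic anhydrase Car9. For Ldha, the interval of the highest class was clear of the next class in 2 libraries, for Egln1 and Car9 in 3 and for the 5 others in 4. P4ha2, a collagen prolyl hydroxylase, was highest in CAF-marker cells in each library at 106, 57.9, 125 and 78.1 CPM, beside 31.3, 11.5, 30.0 and 25.4 CPM in KPC tumor cells. Adm, the vasodilator peptide adrenomedullin, was highest in endothelial-marker cells at 217, 54.4, 53.0 and 69.1 CPM, with intervals clear of the next class in 2 libraries. The first steps of glycolysis had no constant class: Hk2 was highest in neutrophil-marker cells in 3 libraries and in macrophage-marker cells in WT/PBS, and so was Pfkp. Nor had Eno1, of the later steps, which was highest in macrophage-marker cells in 3 libraries and in KPC tumor cells in WT/PBS. The same counts over all genes were not made, so the members cannot be set against them here.

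**Figure D1:**
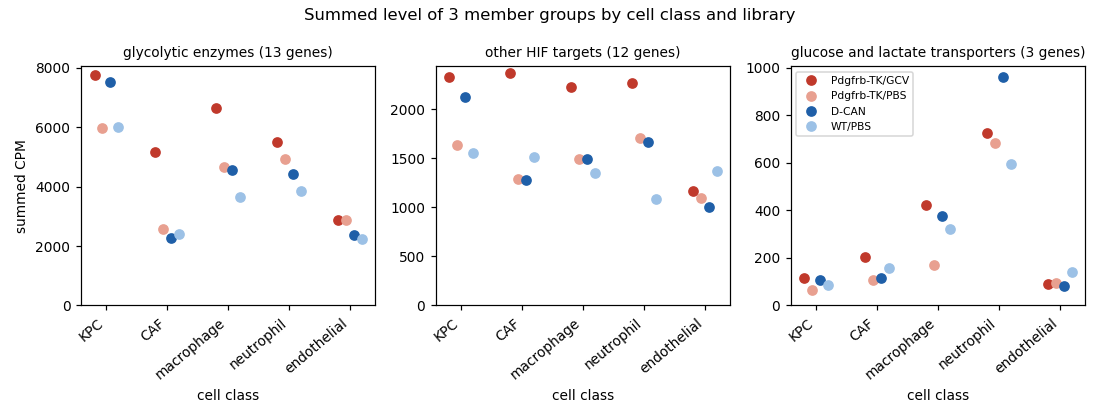
Summed CPM (vertical axes, linear from 0) of the 13 glycolytic enzymes, the 12 other HIF targets and the 3 transporters in 5 cell classes (horizontal axes), 1 point per library. The enzymes are highest in KPC tumor cells and the transporters in neutrophil-marker cells in every library, and the Pdgfrb-TK/GCV points lie above the Pdgfrb-TK/PBS points in KPC, CAF, macrophage and neutrophil-marker cells for all 3 sums.

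In KPC tumor cells, 34 of the 35 members were higher in Pdgfrb-TK/GCV than in Pdgfrb-TK/PBS, beside 61.2% of all genes, with a median log2 ratio (taken over CPM + 1) of 0.49 for the members beside 0.10 for all 13734 genes that reached 100 UMIs over both libraries together. Of these, 12 were higher by 1.5-fold or more and 0 lower, where 12.0% of all genes were higher and 5.39% lower by as much. The gene below its control was Aldoc, a minor aldolase, at 9.51 against 13.4 CPM. By role, the median log2 ratio was 0.74 for the transporters, 0.56 for the HIF regulators, 0.51 for the enzymes beside glycolysis, 0.48 for the other HIF targets and 0.38 for the glycolytic enzymes.

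The largest ratios were those of weakly expressed genes. Pfkfb4, a kinase and phosphatase that sets the level of a sugar phosphate which activates phosphofructokinase, stood at 5.99, 1.43, 5.65 and 4.52 CPM, a ratio of 4.18-fold (95% interval 3.37 to 5.22) in the Pdgfrb-TK model. P4ha2 stood at 31.3, 11.5, 30.0 and 25.4 CPM (2.71-fold, 95% interval 2.51 to 2.94), and Adm at 32.1, 12.4, 12.6 and 33.2 CPM (2.59-fold, 95% interval 2.40 to 2.80). For these 3 genes WT/PBS was also above Pdgfrb-TK/PBS, so Pdgfrb-TK/PBS was the low library of the 4 for Pfkfb4 and P4ha2, and for Adm Pdgfrb-TK/PBS and D-CAN were both low. Slc16a3 stood at 5.01, 1.87, 3.71 and 2.15 CPM (2.67-fold, 95% interval 2.19 to 3.27). Hk2, the hexokinase that traps glucose in the cell and is held by mitochondria, stood at 218, 111, 197 and 162 CPM (1.98-fold, 95% interval 1.93 to 2.03), with Pdgfrb-TK/GCV the highest of the 4 libraries.

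The members that carry most UMIs moved less than the genes just named. Gapdh, the most abundant, stood at 2788, 2263, 2635 and 2397 CPM, and Pkm, the pyruvate kinase at the end of the pathway, at 1136, 784, 1002 and 1022 CPM. Ldha, which turns pyruvate into lactate, stood at 832, 760.5, 789 and 552 CPM and differed by 1.09-fold (95% interval 1.08 to 1.11). Pgk1, the first step of glycolysis that yields ATP, stood at 609, 504, 625 and 395 CPM (1.21-fold, 95% interval 1.19 to 1.22). For both genes WT/PBS was the lowest of the 4 libraries.

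Among the regulators, Hif1a itself stood at 209, 147, 255 and 203 CPM, 1.42-fold (95% interval 1.39 to 1.45) higher in Pdgfrb-TK/GCV than in its control. Egln1 stood at 188, 112, 139 and 148 CPM and Egln3 at 91.6, 61.7, 69.5 and 62.4 CPM, with Pdgfrb-TK/GCV the highest library for both hydroxylases. Slc2a1 had 108, 64.2, 101 and 84.2 CPM (1.68-fold, 95% interval 1.62 to 1.74). Car9, the membrane carbonic anhydrase IX that handles acid outside the cell and is widely used as a hypoxia marker, stood at 52.0, 34.9, 33.1 and 22.0 CPM (1.49-fold, 95% interval 1.42 to 1.56), and Bnip3, a mitophagy receptor of the outer mitochondrial membrane, at 162, 115, 167 and 82.6 CPM (1.41-fold, 95% interval 1.37 to 1.45). Ankrd37, an ankyrin repeat protein, stood at 44.5, 32.0, 30.4 and 31.3 CPM (1.39-fold, 95% interval 1.32 to 1.47). Pdgfrb-TK/GCV was the highest library for Car9 and Ankrd37, while for Bnip3 it was close to D-CAN.

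In the D-CAN model, 28 of the 35 members were higher in KPC tumor cells than in WT/PBS, beside 62.6% of all genes, with a median log2 ratio of 0.39 beside 0.17 for all 13632 genes counted. Of these, 10 were higher by 1.5-fold or more and 1 lower, and here 24.2% of all genes were higher and 8.06% lower by as much. The share of members past 1.5-fold was thus near that of all genes. The glycolytic enzymes had the largest median of the roles, 0.64, with 7 of 13 past 1.5-fold, beside 0.58 for the transporters, 0.35 for the other HIF targets, 0.33 for the enzymes beside glycolysis and 0.15 for the HIF regulators.

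Pfkl, the liver-type phosphofructokinase at the committed step of glycolysis, stood at 111, 69.4, 118 and 43.7 CPM, 2.70-fold (95% interval 2.597 to 2.81) higher after D-CAN. Pfkp, the platelet type, stood at 40.1, 22.2, 41.1 and 17.97 CPM (2.29-fold, 95% interval 2.14 to 2.44) and Aldoc at 9.51, 13.4, 22.9 and 8.91 CPM (2.57-fold, 95% interval 2.35 to 2.81). Of the other HIF targets, Bnip3 differed by 2.02-fold (95% interval 1.96 to 2.08) and the cytokine gene Mif, at 1031, 709, 867 and 528 CPM, by 1.64-fold (95% interval 1.62 to 1.66). For Pfkl, Pfkp, Bnip3 and Mif, WT/PBS was the lowest of the 4 libraries, and Pdgfrb-TK/PBS lay between it and the treated libraries.

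Other members of the fixed set were closer together. Hif1a differed by 1.26-fold (95% interval 1.23 to 1.29), Slc2a1 by 1.19-fold (95% interval 1.15 to 1.24) and Hk2 by 1.22-fold (95% interval 1.19 to 1.25). Pgk1 differed by 1.58-fold (95% interval 1.56 to 1.60), Ldha by 1.43-fold (95% interval 1.41 to 1.45) and Car9 by 1.51-fold (95% interval 1.42 to 1.61). Egln3 was at 1.11-fold (95% interval 1.07 to 1.16), and the interval of Ankrd37, 0.972 times (95% interval 0.917 to 1.03) the WT/PBS level, spans equality. Adm went the other way at 0.380 times (95% interval 0.352 to 0.410) its WT/PBS level, the only member lower by 1.5-fold or more. Pfkfb3 and Ddit4, an inhibitor of mTORC1 that stress of several kinds induces, were also below WT/PBS, at log2 ratios of -0.39 and -0.32.

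**Figure D2:**
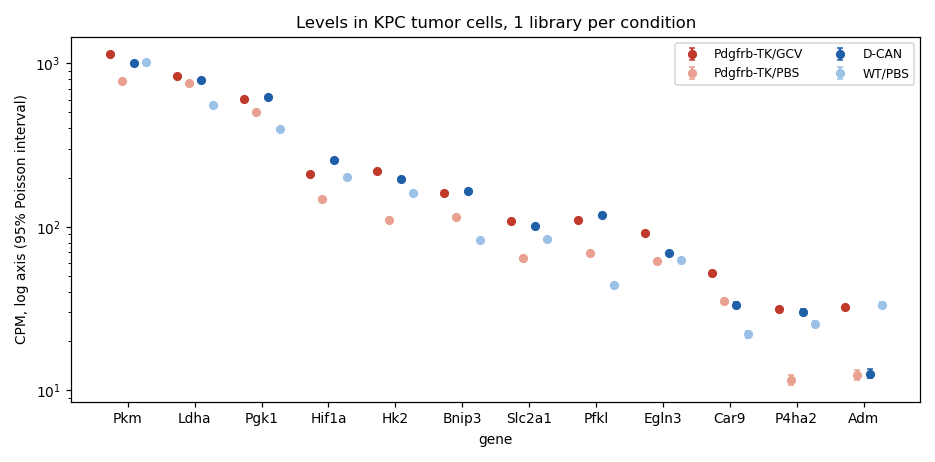
CPM (vertical axis, log scale) of 12 members in KPC tumor cells (horizontal axis), 1 point per library with its 95% Poisson interval. Pdgfrb-TK/GCV lies above Pdgfrb-TK/PBS for all 12, and Adm is the gene for which D-CAN lies far below WT/PBS, at 12.6 against 33.2 CPM.

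The 2 control libraries also differed from each other, and each of the comparisons above shares 1 of them with this one. Between Pdgfrb-TK/PBS and WT/PBS, 2 members were higher and 6 lower by 1.5-fold or more in KPC tumor cells, with 16.8% and 12.4% of all 13370 genes, and the median log2 ratio of the members was -0.04. The lower ones were Adm at -1.35, Pfkfb4 at -1.18, Pfkfb3 at -1.12, P4ha2 at -1.07, Ddit4 at -0.96 and the collagen prolyl hydroxylase P4ha1 at -0.64, all on the log2 scale. The higher ones were Pfkl at 0.65 and Car9 at 0.65. The mice of these controls differ in genotype, and an effect of genotype and a difference between single libraries cannot be told apart.

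Genes of heat shock and early stress moved with the libraries. The summed level of 10 heat shock and immediate early genes in KPC tumor cells was 1791, 1129.6, 1870.1 and 3343 CPM, with a median log2 ratio of 0.89 after GCV (7 of 10 higher by 1.5-fold or more), -0.76 after D-CAN (5 lower) and -1.52 between the controls. The 7 integrated stress response genes matched had medians of 0.74, -0.51 and -1.13. Mitochondrial genes took 5.76%, 4.91%, 5.98% and 7.18% of the UMIs of these cells. Macrophage markers summed to 62.8, 41.0, 25.3 and 19.0 CPM and CAF markers to 16.9, 34.8, 51.6 and 88.5 CPM, beside 8997 and 15319 CPM in their own classes of Pdgfrb-TK/GCV. Their part in the members' differences was not tested.

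Most KPC tumor cells fell into 6 clusters, built without the 35 members, and the libraries filled them unequally. The rest lay mainly in clusters with no class name, such as cluster 8 with 10.8% of them in Pdgfrb-TK/GCV, cluster 11 with 11.1% in WT/PBS and cluster 2 with 13.1% in D-CAN. In Pdgfrb-TK/GCV the largest were cluster 1, led by Piezo2 and Hmga2 (28.0%), and cluster 0, led by Clca3a1 and Ankrd1 (22.3%), while in Pdgfrb-TK/PBS they were cluster 4, led by the gastric genes Gkn2 and Tff1 (29.1%), and cluster 5, led by Wfdc2 and Rrm2 (18.2%). In D-CAN the largest were cluster 1 (25.2%) and cluster 6, led by Iigp1 and Pkhd1 (24.0%), and in WT/PBS cluster 3, led by Sprr1a and Csf2 (31.2%), and cluster 0 (23.3%). The member levels differ between these clusters: in Pdgfrb-TK/PBS the glycolytic enzymes summed to 7612 CPM in cluster 0, 5522 CPM in cluster 1, 9373 CPM in cluster 3, 5590.3 CPM in cluster 4, 6549 CPM in cluster 5 and 3194 CPM in cluster 6.

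Within each of the 6 clusters the GCV difference was smaller than in the whole class, and in 4 of them the D-CAN difference was larger. The median log2 ratio of the members after GCV was 0.16 in cluster 0, 0.20 in cluster 1, 0.02 in cluster 3, 0.22 in cluster 4, 0.27 in cluster 5 and 0.12 in cluster 6, all below the 0.49 of the whole class. After D-CAN it was 0.72, 0.35, 0.62, 0.29, 0.52 and 0.46 in the same clusters, beside 0.39 for the whole class. All genes counted had medians between -0.06 and 0.09 after GCV and between -0.06 and 0.28 after D-CAN in these clusters, the last being cluster 4, where members and all genes were level. Higher by 1.5-fold or more after GCV were 5 of 34, 2 of 34, 1 of 32, 5 of 32, 5 of 32 and 1 of 31 members, beside 4.65%, 6.83%, 7.14%, 4.99%, 2.92% and 2.12% of all genes. After D-CAN they were 20 of 32, 11 of 34, 18 of 34, 5 of 32, 15 of 32 and 14 of 31, beside 14.7%, 18.9%, 18.6%, 33.4%, 17.6% and 25.5% of all genes, so that in cluster 4 the members' share was below that of all genes. With clusters weighted equally, a calculation chosen after the data were seen, the GCV median was 0.26. It took in every cluster with at least 40 cells in each library, not the 6 clusters alone. Clusters 2, 8 and 13, which have no class name, were thus included. Their member medians after GCV were 0.14, 0.23 and 1.13, over 15, 23 and 20 members.

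**Figure D3:**
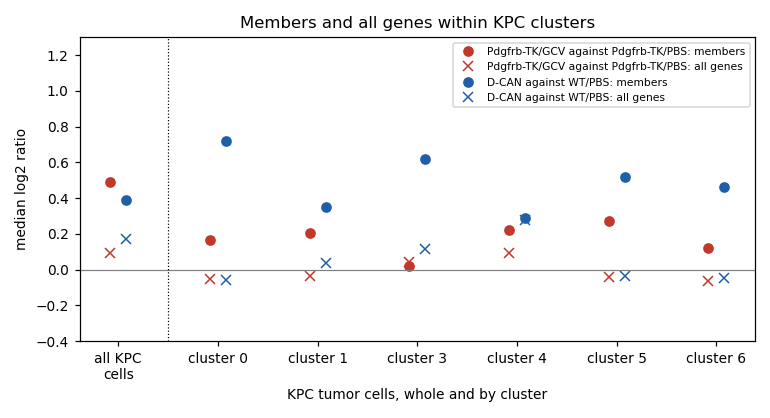
Median log2 ratio (vertical axis) of the members (filled points) and of all genes counted (crosses) in all KPC tumor cells and in each of 6 KPC clusters, red for Pdgfrb-TK/GCV against Pdgfrb-TK/PBS and blue for D-CAN against WT/PBS. The red points drop from 0.49 in the whole class to 0.02 to 0.27 within clusters, and the blue points lie between 0.29 and 0.72.

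Some members kept their direction in every cluster. Of 31 members counted in all 6 clusters, 13 were above their control in each cluster after GCV (Aldoa, Car9, Eno1, Gpi1, Higd1a, Ldha, Mif, P4ha2, Pfkl, Pgk1, Pkm, Slc2a1 and Tpi1) and 18 of 31 after D-CAN (Aldoa, Aldoc, Ankrd37, Bnip3, Bnip3l, Eno1, Gpi1, Hk2, Ldha, Mif, Ndrg1, P4ha1, Pfkl, Pfkp, Pgam1, Pgk1, Slc2a1 and Tpi1). Of all genes counted in the 6 clusters, 13.3% of 8826 after GCV and 25.9% of 8868 after D-CAN were above their control in each cluster. No member was below its control in every cluster of either model, beside 13.7% of all genes after GCV and 17.7% after D-CAN. Some of these ratios were at equality, such as those of Slc2a1 after D-CAN in cluster 4 and Pgk1 after GCV in cluster 3, 1.001-fold (0.873 to 1.15) and 1.004-fold (0.967 to 1.04).

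Car9 after GCV stood at 33.0 against 19.1 CPM in cluster 0, 30.7 against 23.0 CPM in cluster 1 and 90.5 against 62.2 CPM in cluster 3. It stood at 73.8 against 35.2 CPM in cluster 4, 66.6 against 34.6 CPM in cluster 5 and 77.0 against 47.1 CPM in cluster 6. The ratios ran from 1.33-fold (1.11 to 1.62) in cluster 1 to 2.10-fold (1.89 to 2.32) in cluster 4, and every interval lay above equality. After D-CAN, Car9 was 3.05-fold (2.74 to 3.39) higher in cluster 3, where it stood at 63.6 against 20.9 CPM, and 1.60-fold (1.28 to 1.999) in cluster 0, while in clusters 1, 5 and 6 its intervals span equality.

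Bnip3 kept its direction in the D-CAN model instead. It was higher in each cluster, from 1.44-fold (1.34 to 1.56) in cluster 1 to 3.20-fold (2.87 to 3.58) in cluster 5. After GCV it was below its control in clusters 0, 1 and 3, at 196 against 221 CPM, 165 against 197 CPM and 200.5 against 257 CPM, and at 1.03-fold (0.936 to 1.13), 1.04-fold (0.956 to 1.13) and 0.959-fold (0.826 to 1.11) in clusters 4, 5 and 6, although over the whole class it was 1.41-fold (95% interval 1.37 to 1.45) higher. Pfkl after D-CAN was higher in each cluster, from 2.24-fold (1.74 to 2.94) in cluster 6 to 3.37-fold (3.13 to 3.63) in cluster 3. Adm after D-CAN was lower in clusters 1, 3, 4, 5 and 6 and at 1.13-fold (0.930 to 1.36) in cluster 0. Hif1a after GCV ranged from 0.827-fold (0.763 to 0.897) in cluster 3 to 1.21-fold (1.12 to 1.31) in cluster 4.

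Within each library, KPC tumor cells rich in glycolytic enzymes were also rich in most other HIF targets. Cells of the 6 clusters with at least 5000 UMIs were thinned to 5000 UMIs each (4679, 4561, 2387 and 3193 cells used, with 513, 1389, 195 and 418 shallower cells left out) and split into 5 equal groups by their summed UMIs of the 13 enzymes, separately in each cluster and library. The 12 other HIF targets with Egln1 and Egln3, which the ranking did not use, summed to 1185, 923, 1098 and 1086 CPM in the lowest group and 5204, 3790.3, 4328 and 3182 CPM in the highest. Of these sums, Mif alone held 291, 236, 268 and 150 CPM and 1905, 1406, 1420 and 937 CPM. The genes of the TCA cycle, the mitochondrial route of pyruvate, were nearly level, at 978, 1179, 929.6 and 851 CPM and 914, 1119.6, 1051 and 1019.8 CPM.

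The single targets differed in how closely they went along. Adm stood at 4.05, 1.53, 0 and 10.6 CPM in the lowest group and 117, 51.6, 41.8 and 89.6 CPM in the highest, and in D-CAN 0 UMIs in the lowest group allow a level of up to 1.25 CPM. Ankrd37 stood at 8.31, 6.78, 4.58 and 5.93 CPM and 115, 93.8, 69.6 and 70.8 CPM, and Bnip3 at 37.9, 29.3, 55.4 and 23.4 CPM and 431, 363, 407 and 240.3 CPM. Ankrd37 thus spanned 11.9-fold to 15.2-fold between the end groups and Bnip3 7.35-fold to 12.4-fold, beside 2.68-fold to 3.55-fold for Car9. P4ha1 spanned 1.64-fold to 2.67-fold and Ddit4 1.73-fold to 3.31-fold, while Bnip3l, P4ha2, Kdm3a, Higd1a and Egln1 were not followed singly. Car9 stood at 29.6, 19.7, 20 and 19.0 CPM and 97.5, 69.9, 59.1 and 50.9 CPM, and Slc2a1 at 55.2, 36.3, 40 and 54.0 CPM and 229, 140.2, 216 and 187 CPM.

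Hif1a spanned less, at 212, 123, 262 and 229 CPM in the lowest group and 223, 179.8, 296 and 231 CPM in the highest, a ratio of 1.46 in Pdgfrb-TK/PBS and of 1.01 to 1.13 in the other libraries. Ndrg1, a gene of cell differentiation that hypoxia and other stresses induce, went from 282, 180.3, 210.4 and 309 CPM to 616, 479, 605 and 343 CPM, and its ratio was smallest in WT/PBS, 1.11. The cells of the groups also differed in quality: the median share of mitochondrial UMIs was 8.30%, 5.63%, 9.52% and 14.1% in the lowest group and 3.89%, 3.06%, 3.19% and 4.09% in the highest, and the median depth before thinning was 11464, 8909, 14135.5 and 9634 UMIs in the lowest and 16101, 12201, 27207 and 21876 UMIs in the highest. The summed heat shock and immediate early genes went from 1763, 1256, 2081 and 3849 CPM to 2154, 1559.6, 1776 and 2947 CPM, so that they ran with the ranking in the Pdgfrb-TK libraries and against it in the others. The part of cell quality in these spans was not tested.

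**Figure D4:**
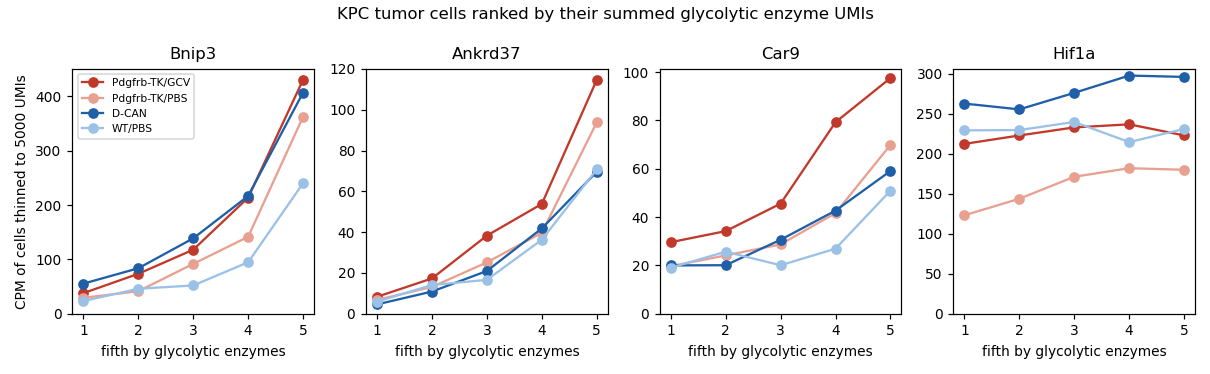
CPM (vertical axes, linear from 0) of Bnip3, Ankrd37, Car9 and Hif1a in KPC tumor cells thinned to 5000 UMIs, in 5 equal groups of cells ranked by their summed glycolytic enzyme UMIs within cluster and library (horizontal axes, 1 lowest), 1 line per library. Bnip3, Ankrd37 and Car9 are higher in the highest than in the lowest group in all 4 libraries, and Hif1a spans 1.01-fold to 1.13-fold in 3 libraries and 1.46-fold in Pdgfrb-TK/PBS.

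The share of cells with a Car9 UMI depended on depth and does not count the cells that express it. With cells thinned to 2000 UMIs (5469, 6067, 2863 and 3900 cells used, 780, 797, 213 and 441 shallower ones left out), a Car9 UMI was present in 9.27% (8.51% to 10.1%), 7.04% (6.41% to 7.71%), 5.59% (4.78% to 6.49%) and 4.21% (3.60% to 4.88%) of KPC tumor cells, with exact 95% intervals in parentheses. Without thinning the shares were 27.1%, 19.1%, 22.4% and 17.3% at median depths of 11804, 7954, 19139 and 12109 UMIs. In macrophage-marker cells, which are not known to make it, the thinned shares were 1.99% (1.303% to 2.90%), 2.18% (0.805% to 4.69%), 0.903% (0.364% to 1.85%) and 0.284% (0.0345% to 1.02%) at median depths of 5889, 2697, 5086 and 6779 UMIs. The share in KPC tumor cells was above that of macrophage-marker cells in each library, but RNA from outside the cell was not measured.

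Among CAF-marker cells the members were higher in Pdgfrb-TK/GCV than in Pdgfrb-TK/PBS, and were split in the D-CAN model. The 26 members with at least 100 UMIs were above their control after GCV, beside 42.8% of all genes, with a median log2 ratio of 0.95 beside -0.08 for all 4668 genes counted, and 21 were higher and 0 lower by 1.5-fold or more, beside 6.75% and 13.9% of all genes. A member had to reach 100 UMIs in the 2 small libraries together to be counted, and 9 did not. After D-CAN, 34 members were counted, and 5 were higher and 9 lower by 1.5-fold or more, beside 25.7% and 15.7% of all 11149 genes. The median was -0.11 beside 0.13. With clusters weighted equally the members' median became 0.20, but this used clusters 9 and 14 alone. Left out were cluster 18, with 39.1% of the D-CAN CAF-marker cells, and cluster 2, with 8.61%. Between the controls 6 were higher and 8 lower, beside 22.8% and 16.1% of 9933 genes, with a median of -0.08.

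Egln3 stood at 121, 40.1, 8.84 and 17.2 CPM in CAF-marker cells, 3.02-fold (95% interval 2.25 to 4.11) higher after GCV and 0.514 times (95% interval 0.401 to 0.655) its control after D-CAN. Eno1, the enolase, stood at 335, 119, 105 and 104 CPM (2.82-fold, 95% interval 2.37 to 3.35 after GCV), and part of its reads can belong to its near copy Eno1b, which had 287 UMIs beside 23078 of Eno1 in KPC tumor cells of Pdgfrb-TK/GCV. Slc2a1 stood at 94.7, 38.8, 54.6 and 94.8 CPM (2.44-fold, 95% interval 1.79 to 3.36 after GCV). For Egln3 and Eno1 Pdgfrb-TK/GCV was far above the other 3 libraries, but for Slc2a1 it was level with WT/PBS. Pgk1 stood at 466, 195, 142 and 171 CPM (2.39-fold, 95% interval 2.08 to 2.75) and Slc16a3 at 93.3, 38.8, 35.3 and 18.2 CPM (2.40-fold, 95% interval 1.76 to 3.31), again with Pdgfrb-TK/GCV highest.

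After D-CAN the largest ratios upward in CAF-marker cells were those of Slc16a3 (1.94-fold, 95% interval 1.66 to 2.27), Pfkl at 81.1, 47.7, 33.4 and 17.3 CPM (1.93-fold, 95% interval 1.64 to 2.27) and Pfkp at 42.3, 36.9, 65.1 and 40.2 CPM (1.62-fold, 95% interval 1.45 to 1.81). P4ha2 stood at 106, 57.9, 125 and 78.1 CPM (1.60-fold, 95% interval 1.48 to 1.73) and Pfkfb4 at 27.3, 24.2, 30.9 and 19.3 CPM (1.60-fold, 95% interval 1.36 to 1.88). For Slc16a3 and Pfkl, however, Pdgfrb-TK/PBS was above D-CAN as well, so WT/PBS was the low library.

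The members lower after D-CAN were led by Ndrg1 at 169, 84.7, 117 and 288 CPM (0.408 times, 95% interval 0.382 to 0.435 its WT/PBS level) and Ddit4 at 73.2, 45.8, 62.5 and 147 CPM (0.425 times, 95% interval 0.389 to 0.464), followed by Egln3 as given above. Next came Hk2 at 122, 64.9, 133 and 239.9 CPM (0.554 times, 95% interval 0.520 to 0.589) and Pfkfb3, the isoenzyme of Pfkfb4 with the stronger kinase, at 20.8, 9.55, 17.7 and 31.2 CPM (0.567 times, 95% interval 0.475 to 0.674). In Ndrg1, Ddit4, Hk2 and Pfkfb3 WT/PBS was the highest library and Pdgfrb-TK/PBS the lowest, so that D-CAN lay below one control and above the other, while Egln3 was lowest in D-CAN. Hif1a stood at 185, 135, 366 and 284 CPM, highest after D-CAN.

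Several values stood beside the CAF results. The median depth of CAF-marker cells was 9895, 4440.5, 8215.5 and 9836 UMIs. Of these cells, 36.0%, 56.7%, 73.1% and 80.6% lay in clusters that also had the CAF-marker name. Rgs5, named next, was one of the markers used for pericytes. Cluster 14, which has no class name and is led by Rgs5, Saa3 and Calca, held 61.8%, 41.5%, 17.1% and 12.5% of the CAF-marker cells, while cluster 9, led by Col8a1 and Postn, held 80.4% in WT/PBS and cluster 18, led by C3 and Clec3b, 39.1% in D-CAN. Within cluster 9 the member median after GCV was 1.09 (43 against 156 cells) and within cluster 14 it was 0.74 (84 against 136 cells), and after D-CAN the medians were 0.16 and -0.05. All genes counted in these clusters had medians of -0.03 and -0.01 after GCV and of 0.12 and -0.24 after D-CAN. The 10 CAF markers summed to 15319, 24144, 30711 and 24724 CPM, KPC markers to 534, 642, 169 and 370.2 CPM and the heat shock and immediate early genes to 3698, 1728, 3988 and 14411 CPM. All 10 of the latter were higher by 1.5-fold or more after GCV, 7 were lower after D-CAN and 10 lower between the controls. Car9, here under 100 UMIs after GCV, stood at 50.2, 7.00, 5.36 and 3.85 CPM, and its thinned share of CAF-marker cells was 8.20% (4.001% to 14.6%) in Pdgfrb-TK/GCV, beside 1.47% (0.401% to 3.71%), 1.41% (0.732% to 2.46%) and 0.686% (0.314% to 1.298%). The interval of that share holds the 9.27% of the KPC tumor cells of the same library. The KPC markers of its CAF-marker cells were below those in Pdgfrb-TK/PBS and above those in D-CAN and WT/PBS. Whether tumor RNA, stress or the makeup of the few CAF-marker cells has a part in the difference was not tested.

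**Figure D5:**
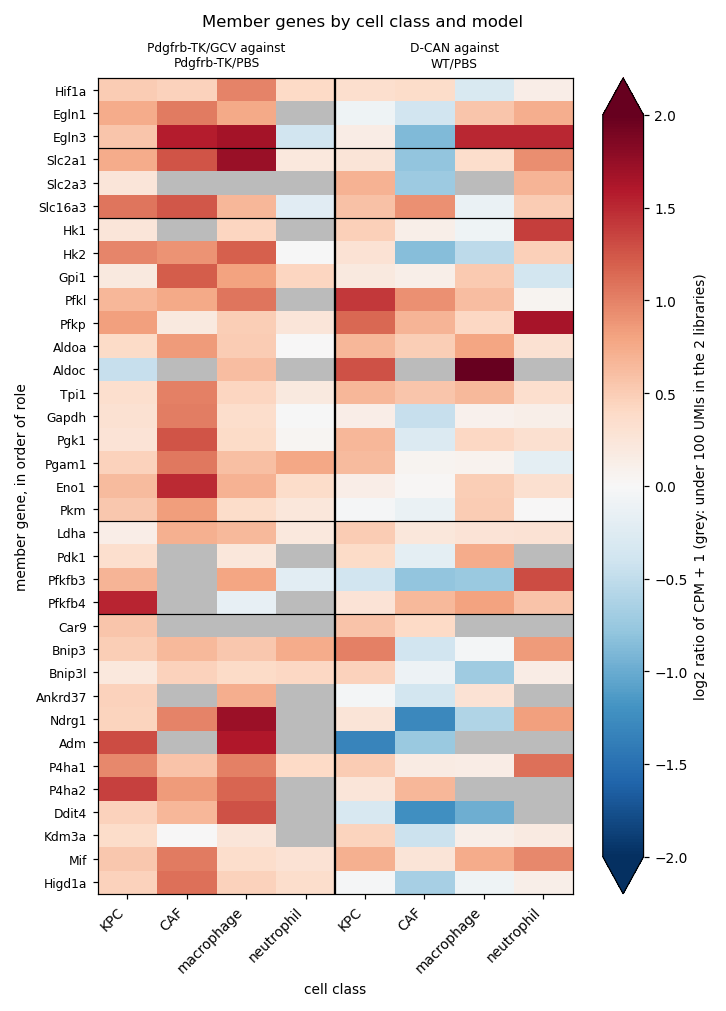
Log2 ratio of CPM + 1 (color, red higher and blue lower than the control) of the 35 members (rows, in order of role, with lines between roles) in 4 cell classes (columns), left for Pdgfrb-TK/GCV against Pdgfrb-TK/PBS and right for D-CAN against WT/PBS, with genes under 100 UMIs in grey. The KPC, CAF and macrophage columns on the left are red for nearly every member, and the CAF column on the right holds both colors.

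Macrophage-marker cells gave a pattern like that of CAF-marker cells after GCV. Of 33 members counted, 32 were above Pdgfrb-TK/PBS, beside 44.6% of all genes, with a median of 0.66 beside -0.05 for all 8332 genes, and 19 were higher and 0 lower by 1.5-fold or more, beside 10.3% and 8.07% of all genes. After D-CAN 8 of 31 were higher and 4 lower, beside 26.8% and 10.8% of 8123 genes, and the median was 0.28 beside 0.19. Between the controls 5 of 30 were higher and 7 lower, beside 23.6% and 16.0% of 6505 genes. Pfkfb4 was the member below its control after GCV, with an interval that spans equality.

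Slc2a1 stood at 295, 88.3, 255 and 199 CPM in macrophage-marker cells, 3.34-fold (95% interval 2.77 to 4.07) higher after GCV. Ndrg1 stood at 192, 57.8, 118 and 179 CPM (3.32-fold, 95% interval 2.63 to 4.25) and Egln3 at 175, 54.7, 42.1 and 14.1 CPM (3.19-fold, 95% interval 2.51 to 4.12). Egln3 was thus lowest in WT/PBS, whereas Slc2a1 and Ndrg1 were lowest in Pdgfrb-TK/PBS. Adm stood at 35.2, 10.9, 4.59 and 13.9 CPM (3.21-fold, 95% interval 1.89 to 5.95) and Ddit4 at 76.6, 31.3, 51.8 and 103 CPM (2.45-fold, 95% interval 1.78 to 3.46), and for Ddit4 the WT/PBS level was above that of Pdgfrb-TK/GCV. Hif1a stood at 477, 238, 582 and 723 CPM, its highest level in any class in 3 libraries, 1.999-fold (95% interval 1.78 to 2.25) higher after GCV and 0.806 times (95% interval 0.769 to 0.845) its WT/PBS level after D-CAN.

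After D-CAN the largest ratios upward in macrophage-marker cells were those of Aldoc at 16.1, 10.2, 21.1 and 4.56 CPM (4.63-fold, 95% interval 2.96 to 7.52), Egln3 (2.99-fold, 95% interval 2.29 to 3.94) and Pfkfb4 at 21.6, 24.2, 46.5 and 26.2 CPM (1.77-fold, 95% interval 1.43 to 2.20). Aldoa, the main aldolase, stood at 810.1, 568, 561 and 326 CPM (1.72-fold, 95% interval 1.62 to 1.83) and Mif at 964, 755, 722 and 432 CPM (1.67-fold, 95% interval 1.59 to 1.76). For Egln3, Aldoa and Mif both Pdgfrb-TK libraries were above D-CAN. Downward, Ddit4 was at 0.502 times (95% interval 0.433 to 0.581), Pfkfb3 at 110.1, 63.3, 92.0 and 154 CPM (0.598 times, 95% interval 0.534 to 0.669), Bnip3l at 179, 137, 79.2 and 131 CPM (0.606 times, 95% interval 0.536 to 0.685) and Ndrg1 at 0.658 times (95% interval 0.594 to 0.728), in each case of the WT/PBS level.

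Macrophage-marker cells were drawn from different clusters too. Cluster 7, led by Chil3 and Arg1, held 48.9%, 23.5%, 25.2% and 78.5% of them and cluster 12, led by C1qa and Apoe, 44.8%, 64.9%, 58.8% and 13.2%. Within cluster 7 the member median was 0.42 after GCV (99 control cells) and 0.62 after D-CAN, and within cluster 12 it was 0.17 and 0.42 (98 control cells). Within clusters, too, the D-CAN medians were thus larger than over the whole class and the GCV medians smaller. All genes counted had medians of 0.02 and 0.06 in cluster 7 and of -0.04 and 0.20 in cluster 12. In cluster 12 after D-CAN, 10 of 29 members were higher by 1.5-fold or more, beside 30.3% of all genes. Summed heat shock and immediate early genes stood at 3962, 1647, 5998 and 5887 CPM and KPC markers at 589, 853, 262 and 415 CPM, and their part was not tested.

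Neutrophil-marker cells were few, and the members' ratios in the Pdgfrb-TK model were small. Of 21 members counted after GCV, 2 were higher and 0 lower by 1.5-fold or more, beside 8.8% and 8.69% of only 875 genes: Pgam1, phosphoglycerate mutase, at 381, 222, 248 and 284 CPM (1.71-fold, 95% interval 1.25 to 2.37) and Bnip3 at 262, 157, 135 and 74.2 CPM (1.67-fold, 95% interval 1.15 to 2.47). The share of members past 1.5-fold was thus near that of all genes, and the median was 0.22 beside 0.01. After D-CAN 11 of 28 were higher and 0 lower, beside 31.9% and 17.9% of 2885 genes, with a median of 0.41 beside 0.15. Between Pdgfrb-TK/PBS and WT/PBS the median of 21 members was 0.56, beside -0.17 for all 1393 genes counted. By this median the 2 controls lay further apart than either treated library from its control.

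The largest after D-CAN were Pfkp at 259, 218, 206 and 64.9 CPM (3.17-fold, 95% interval 2.28 to 4.51), Egln3 at 425, 553, 416 and 145 CPM (2.87-fold, 95% interval 2.30 to 3.61) and the hexokinase Hk1 at 44.6, 51.0, 114 and 43.3 CPM (2.64-fold, 95% interval 1.75 to 4.11). For Pfkp and Egln3, WT/PBS was low beside all 3 other libraries. Pfkfb3 stood at 154.6, 178, 212 and 85.0 CPM (2.50-fold, 95% interval 1.86 to 3.41) and P4ha1 at 256, 193, 284 and 131 CPM (2.16-fold, 95% interval 1.70 to 2.78). The summed neutrophil markers of this class were 33351, 51208, 76427 and 73153 CPM, lowest in Pdgfrb-TK/GCV, its KPC markers were 1475, 1955, 411 and 882 CPM, lowest in D-CAN, and its heat shock and immediate early genes were 7261, 8077, 19292 and 5216 CPM, with 8 of 10 higher by 1.5-fold or more after D-CAN. Their part was not tested.

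In endothelial-marker cells, 10 members reached 100 UMIs in the Pdgfrb-TK model, with 43 cells after GCV, and their median log2 ratio was 0.00. Hif1a stood at 357, 219.9, 299.7 and 462 CPM there (1.62-fold, 95% interval 1.19 to 2.20 after GCV) and Ldha at 197, 311, 255 and 204 CPM (0.632 times, 95% interval 0.443 to 0.888 its control). In the D-CAN model 26 did, with a median of -0.27 beside 0.07 for all genes counted. The largest ratios below WT/PBS were those of Pfkfb3 at 28.7, 27.2, 37.6 and 124 CPM (0.303 times, 95% interval 0.197 to 0.450), Ddit4 at 61.5, 109, 54.4 and 165 CPM (0.330 times, 95% interval 0.231 to 0.459) and Egln3 at 12.3, 27.2, 16.7 and 43.7 CPM (0.383 times, 95% interval 0.192 to 0.697). Slc2a1 stood at 57.4, 59.3, 51.6 and 119.9 CPM (0.430 times, 95% interval 0.297 to 0.607) and the histone demethylase gene Kdm3a at 57.4, 69.2, 46.0 and 94.5 CPM (0.487 times, 95% interval 0.327 to 0.703). Each of these genes was highest in WT/PBS. Above WT/PBS were Pfkl at 90.2, 37.1, 64.1 and 25.8 CPM (2.48-fold, 95% interval 1.66 to 3.70) and Eno1 at 90.2, 119, 117 and 65.8 CPM (1.78-fold, 95% interval 1.35 to 2.33). Between Pdgfrb-TK/PBS and WT/PBS the median of 25 members was -0.15, beside -0.04 for all genes counted. The 10 heat shock and immediate early genes had medians of -0.22 after D-CAN and -3.20 between the controls. Their part was not tested.

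Genes of the same and of neighboring routes outside the 35 gave the following counts in KPC tumor cells. Of 30 further HIF pathway genes and targets, 29 were counted: 10 were higher and 1 lower by 1.5-fold or more after GCV (median log2 ratio 0.45), and 11 higher and 3 lower after D-CAN (median 0.17). All genes counted had medians of 0.10 and 0.17 in these comparisons, with 12.0% higher and 5.39% lower after GCV and 24.2% higher and 8.06% lower after D-CAN, so the D-CAN median of the list was that of all genes. They include Ak4, a mitochondrial adenylate kinase, at 1.34 and 0.59 after GCV and D-CAN on the log2 scale, the angiogenic factor gene Vegfa at 0.74 and 0.03, and the lipid droplet gene Hilpda at 0.55 and -0.72. Of 16 TCA cycle genes, 0 were higher and 1 lower after GCV (median -0.07), and 1 was higher and 0 lower after D-CAN (median 0.16). The 7 genes of the pentose phosphate route had medians of -0.23 and 0.04, and 14 and 11 counted isoenzymes of glycolysis, such as the muscle phosphofructokinase Pfkm, had medians of -0.08 and 0.01. Of 5 gluconeogenesis genes 2 were counted, Pck2 at -0.31 and 0.94 and Fbp2 at -1.74 and -1.08.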

How the data were processed

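Droplet single-cell libraries, 1 from each of 4 conditions, were deposited by the authors as filtered matrices of raw counts, that is UMIs per gene and cell, and the file headers name cellranger 7.0.0 while the submitters' processing notes name Cell Ranger, STAR 2.6 and mm10. All libraries were grouped by their labels, and 5 features for fluorescent proteins, listed in the WT/PBS and D-CAN files alone, were left out. The 35 members and every gene list were chosen with earlier results of these data known. Genes were matched by symbol, with Ero1a matched through a RefSeq synonym. Ddit3, listed under 2 identifiers, was left out of the integrated stress response list.

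Cells with at least 200 detected genes were kept. A cell entered a class when it held at least 3 markers of 1 list, and no second list with at least 2 markers reached more than 0.5 of the first list's share. These limits were chosen after cell counts per class under 3 settings had been seen. Clusters were built with scanpy 1.11.5 and leidenalg 0.10.2 without the 35 members (scaling to 10000 UMIs, 2000 variable genes, 10 principal components, 20 neighbors, resolution 0.8), and the 10 leading genes of each were taken by fold. Scrublet called 0.0197% of cells or fewer in any library and was taken not to have worked, so doublets were kept.

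Counts were summed per class and library and divided by their total (CPM). Log2 ratios used a pseudocount of 1 CPM, and genes needed 100 UMIs in the 2 libraries together. Exact Poisson intervals of levels, exact conditional binomial intervals of folds and exact binomial intervals of shares (95%, scipy 1.17.1) cover counting error only. With 1 library per condition no count model was fitted and no p-value is given: a gene was counted as higher or lower past 1.5-fold. The calculation of ratios and fold intervals was tested on simulated counts with known folds and counting error only. The other steps were not tested in this way. Named genes are Hif1a, Slc2a1, Hk2, Ldha, Pgk1, Car9, Bnip3, Egln3 and Ankrd37 in KPC tumor cells and, per class and comparison, the 5 members with the largest ratios in each direction among those past 1.5-fold. Genes named beyond these were chosen after their values were seen. The medians were recomputed under 10 other settings, and under 3 more that were chosen after the data were seen. Promoter windows came from the RefSeq table of GRCm38.p6 and gene models from GENCODE M21.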

Additional observations from a re-analysis of the deposited data

Results flagged for a closer look

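In 10 cases a member differed by 1.5-fold or more in opposite directions in the 2 models, higher after GCV than in Pdgfrb-TK/PBS and lower after D-CAN than in WT/PBS. Of all genes counted in both models, 1.70% did so in KPC tumor cells (1 of 35 members), 2.38% in CAF-marker cells (6 of 26) and 2.24% in macrophage-marker cells (3 of 31). Each difference between the models' log2 ratios rests on single libraries and was not tested. Adm in KPC tumor cells differed by 2.63, from 1.304 after GCV and -1.33 after D-CAN. In CAF-marker cells the differences were 2.46 for Egln3, 2.28 for Ndrg1, 2.05 for Slc2a1, 1.89 for Ddit4, 1.77 for Higd1a and 1.75 for Hk2, and in macrophage-marker cells they were 2.31 for Ndrg1, 2.25 for Ddit4 and 1.52 for Pfkfb3. Heat shock and immediate early genes went the same way in KPC tumor cells and CAF-marker cells, with medians of 0.89 and 1.21 after GCV and of -0.76 and -1.71 after D-CAN, but in macrophage-marker cells the medians were 1.70 and -0.07. Against the other PBS library the Adm ratios were -0.046 and 0.022 in KPC tumor cells, so that the opposite directions were lost. After D-CAN, the CAF-marker cell ratios of Ndrg1, Ddit4 and Hk2 became 0.46, 0.44 and 1.02, and that of Slc2a1 after GCV became -0.00060. Slc2a1 after D-CAN lay above Pdgfrb-TK/PBS in CAF-marker cells, so its fall turned too, while Egln3 kept both directions there. Higd1a is not given here against the other PBS library. The macrophage-marker cell ratios of Ndrg1, Ddit4 and Pfkfb3 after D-CAN became 1.02, 0.71 and 0.53, with Ddit4 after GCV at -0.43. After GCV, Ndrg1, Ddit4 and Hk2 in CAF-marker cells and Pfkfb3 in macrophage-marker cells also lay below WT/PBS, so these rises turned too.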

How the results depend on the processing

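No paired analysis was possible because each condition had 1 library and the labels give no replicate numbers that pair them. Median log2 ratios of the members kept their direction under every alternative run, except in CAF-marker cells after D-CAN, where -0.11 became 0.20 with clusters weighted equally. That setting used only clusters with at least 40 cells in each library, here clusters 9 and 14 without cluster 18. When a treated library was set against the PBS control it does not belong to, the median was 0.35 in KPC tumor cells after GCV, 0.13 in macrophage-marker cells after D-CAN, and 0.85 after GCV and 0.0019 after D-CAN in neutrophil-marker cells. Centred on all genes, it was 0.39 and 0.22 in KPC tumor cells after GCV and D-CAN, -0.24 in CAF-marker cells and 0.091 in macrophage-marker cells after D-CAN. With a pseudocount of 10 CPM it was 0.44 and 0.27 in KPC tumor cells. With cells weighted equally it was 0.17 in KPC tumor cells and -0.29 in CAF-marker cells after D-CAN. With clusters weighted equally it was 0.26 in KPC tumor cells after GCV and 0.60 in macrophage-marker cells after D-CAN. The 0.26 also took in clusters 2, 8 and 13 and the 0.60 also cluster 13, none of which has a class name. The cause was not tested.

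Single genes changed direction mainly with the other PBS library. In KPC tumor cells Adm became -0.046 after GCV and 0.022 after D-CAN. In CAF-marker cells Slc2a1 became -0.00060 after GCV, and after D-CAN Slc16a3 became -0.14, Pfkl -0.50, Ndrg1 0.46, Ddit4 0.44, Hk2 1.02 and Pfkfb3 0.82. The GCV levels of Ndrg1, Ddit4 and Hk2 in CAF-marker cells also lay below WT/PBS, and the D-CAN level of Slc2a1 lay above Pdgfrb-TK/PBS. In macrophage-marker cells Ddit4 became -0.43 after GCV, and after D-CAN Egln3 became -0.37, Aldoa -0.016, Mif -0.064, Ddit4 0.71, Pfkfb3 0.53 and Ndrg1 1.02. The GCV level of Pfkfb3 in macrophage-marker cells also lay below WT/PBS. In neutrophil-marker cells after D-CAN Pfkp became -0.086 and Egln3 -0.41. Hk2 in CAF-marker cells after D-CAN became 0.60 in cluster 14 alone and 0.057 with clusters weighted equally, and Ndrg1 in macrophage-marker cells after D-CAN 0.31 with clusters weighted equally. The 43 endothelial-marker cells and 136 CAF-marker cells of Pdgfrb-TK/GCV limit the genes that could be counted there.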
